A study of Rattus norvegicus with 7 samples.

Results

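The 6 microRNAs rno-miR-143, rno-miR-145, rno-miR-199a-5p, rno-miR-199a-3p, rno-miR-214 and rno-miR-152, known from hepatic stellate cells and other mesenchymal cells, were read from rat liver arrays by exact match to the name the array gives each probe. All 6 were found among the 677 rat miRNAs of the array. The tested livers came from 4 adult male Sprague-Dawley rats fed a diet with 50 mg/kg of potassium perfluorooctanesulfonate (PFOS, a persistent fluorinated surfactant) for 28 days. The reference livers came from 3 adult male rats of the same strain that ate the control diet over the same 28 days, and the submitters left out 1 more control array on quality grounds. Each array held Cy3-labelled total RNA of whole liver from 1 rat, so a lower signal of a stellate cell miRNA cannot be told apart from fewer such cells. The comparison asks how the liver's miRNA profile differs when PFOS is eaten.

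Stellate cells lie between the hepatocytes and the sinusoidal endothelium, store vitamin A, and after injury turn into contractile, collagen-producing myofibroblasts. A miRNA is cut from a hairpin precursor and guides the silencing complex to transcripts that pair with its seed, the bases near its 5′ end. In mouse and human, miR-143 and miR-145 are made from a shared transcript that is abundant in smooth muscle and fibroblasts, where they hold contractile cells in their differentiated state. The miR-199a and miR-214 hairpins are cut in mouse from the non-coding transcript Dnm3os, and their miRNAs are raised in fibrotic liver of mouse and human. In human cells miR-152 targets the DNA methyltransferase DNMT1.

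The mature sequences are given 5′ to 3′ as RefSeq holds them on the rat assembly GRCr8, with the seed (bases 2 to 8) in capitals, because the seeds show which of the 6 could act on the same transcripts. The array names give no arm for miR-143, miR-214, miR-152 and miR-145. The first 3 were paired with the RefSeq 3′ arm and miR-145 with the 5′ arm by common miRNA naming, without the probe sequences, and all 6 were found in RefSeq.
miR-143 (chr18:57371373-57371394, minus strand): uGAGAUGAagcacuguagcuca
miR-145 (chr18:57370033-57370055, minus strand): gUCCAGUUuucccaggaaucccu
miR-199a-5p (chr13:77116255-77116277, plus strand): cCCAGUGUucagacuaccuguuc
miR-199a-3p (chr13:77116294-77116315, plus strand): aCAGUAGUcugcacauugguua
miR-214 (chr13:77121713-77121733, plus strand): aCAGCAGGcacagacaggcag
miR-152 (chr10:82329435-82329455, plus strand): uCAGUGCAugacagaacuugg
miR-148b-3p (chr7:136299930-136299951, plus strand): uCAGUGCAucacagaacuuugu

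The 6 members had 6 different seeds, so no member shared its seed with another. Only the seed of miR-152 was found in other RefSeq rat miRNAs, miR-148a-3p and miR-148b-3p, and miR-148b-3p is printed above as the one of these on the array. Counted from the 5′ end of miR-152, it differs by G10C and G20U and is 1 base longer. The mature miR-145 and miR-143 sequences lie 1317 bases apart on chromosome 18, both inside the long non-coding gene Carmn. The arms miR-199a-5p and miR-199a-3p are separated by 16 bases of 1 hairpin on chromosome 13. The mature miR-214 sequence follows 5397 bases after miR-199a-3p, and both hairpins lie within the span of Dnm3. On chromosome 10 the miR-152 hairpin lies within Copz2, which encodes a coatomer subunit.

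Median signal was higher on each PFOS array than on any control array, though PFOS replicate 1 lay below 1 or more control arrays for several members. The median unscaled signal of the 123 miRNAs detected on every array was 258 ± 46.2 on PFOS arrays (SD, n = 4) and 149 ± 23.9 on control arrays (SD, n = 3). The labelling spike-in signal, a quality metric in the file headers taken as log10, whose control probes the files do not name, came to 6571 to 10686 on PFOS arrays and 3431 to 3659 on control arrays. Signal was therefore scaled to a common 75th percentile and normalised by cyclic loess before the groups were compared. The number of arrays limits the precision of every value. As a check of the labelled tissue, the hepatocyte miRNA miR-122 had geometric mean normalised signals of 58407 (PFOS) and 58816 (control).

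Detection on all 7 arrays was found for 4 members, namely miR-143, miR-199a-5p, miR-199a-3p and miR-152. A miRNA counted as detected when, for 1 of its probes or more, the scanner software called most of the spots (over a 0.5 share, outlier spots aside) well above background. Of all 677 miRNAs, 18.2% met this on every array and 67.7% on no array. The other two, miR-145 and miR-214, were detected on PFOS replicates 2, 3 and 4. On the control side miR-145 was detected on no array and miR-214 on control replicate 1. Of the 175 tested miRNAs, 27.4% were detected on a larger share of PFOS than of control arrays and 2.29% on a smaller share. These shares depend on the filter of the test, which asked for detection on 3 or more PFOS arrays or on all 3 control arrays. Both miR-145 and miR-214 entered the test through PFOS arrays alone. The part of array brightness in these detection counts was not tested.

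**Figure D1:**
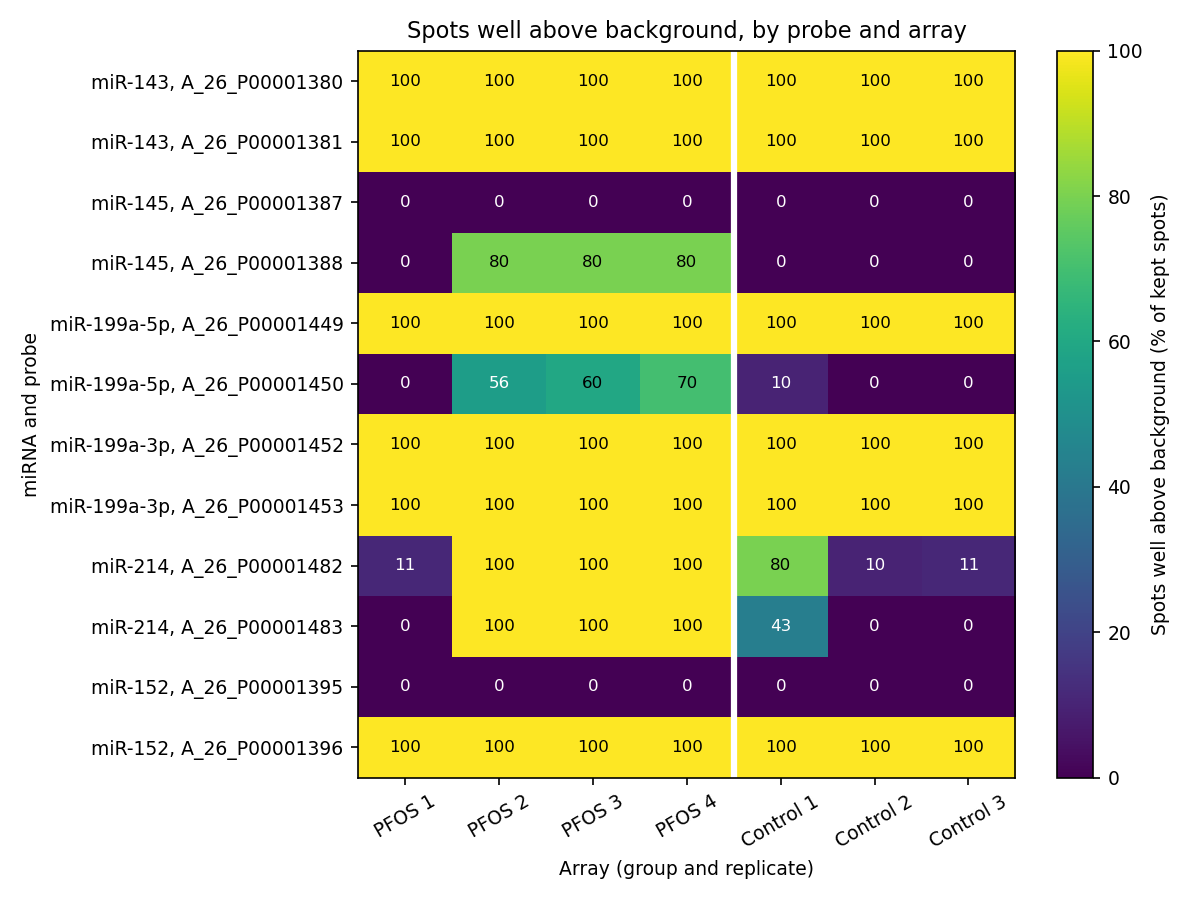
Share of kept spots flagged well above background (colour and printed number, in percent) for each of the 12 probes of the 6 miRNAs (rows) on the 4 PFOS and 3 control arrays (columns, PFOS left). Probes of miR-143 and miR-199a-3p are at 100 on all arrays. The brighter miR-145 probe is at 80 and both miR-214 probes at 100 on PFOS replicates 2 to 4, against 0 to 11 on PFOS replicate 1, and 1 probe each of miR-145 and miR-152 is at 0 throughout.

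Each member had 2 probes with up to 10 spots apiece. Of the 12 probes, 6 were detected on every array. For miR-152 a single probe carried the signal, with 100% of its spots above background on all 7 arrays, while the other probe had 0% on all of them. For miR-145 the brighter probe had 80% of its spots above background on PFOS replicates 2, 3 and 4 and 0% on the other 4 arrays, and the dimmer probe had 0% throughout. The spread between spots of 1 array was small for bright probes and large for dim ones. Its median coefficient of variation was 6.13% for the brighter miR-143 probe, 6.94% for the brighter miR-199a-3p probe and 27.5% for the brighter miR-145 probe.

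In the cluster of miR-143 and miR-145, the difference of miR-143 between the diets was smaller than the spread within them. Its normalised signal was 554, 785, 612 and 673 in the 4 PFOS livers, against 593, 652 and 754 in the 3 control livers. The groups overlapped, with the lowest and the highest liver both on the PFOS diet. The averages were 656 ± 98.7 in PFOS livers (SD, n = 4) and 666 ± 81.5 in control livers (SD, n = 3). The log2 fold change was -0.03, with a 95% interval of -0.38 to 0.32 (limma, adjusted p = 0.9995). That interval excludes a change of 1 on the log2 scale in either direction, for differences relative to the other miRNAs of the array. Its 2 probes gave -0.07 (SE 0.13) and -0.02 (SE 0.19).

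The unscaled signal of miR-145, a repressor of smooth muscle dedifferentiation through Klf factors in mouse, was close to background everywhere. Summed over its probes it was 5.96, 22.6, 24.1 and 16.8 on the PFOS arrays and 12.5, 9.21 and 15.6 on the control arrays. PFOS replicates 2, 3 and 4 had the highest values and PFOS replicate 1 the lowest of all 7 arrays. After normalisation the values were 14.2, 14.7, 13.8 and 13.5 in PFOS livers and 15.1, 16.3 and 18.8 in control livers, and PFOS replicate 1 was held at the floor of 12.1 before the loess step. All 4 PFOS values then lay below the 3 control values, although miR-145 was above background on PFOS arrays only. A value at the floor on all 7 arrays came out of the same steps with a log2 difference of -0.17, PFOS minus control. No fold is given for miR-145, because the lowest measurable level of each control array lay above the PFOS mean, and any difference printed for it elsewhere is one between values not above background in control livers. The test gave an adjusted p of 0.240 (limma, 0.0353 unadjusted). The difference of the brighter probe alone had the other sign, which is the sign of floor values when probes are normalised singly.

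The cluster of miR-199a and miR-214 was measured at 3 mature miRNAs, and none passed the test between the diets. The normalised signal of miR-199a-5p, which in human lung fibroblasts targets caveolin 1, was 39.3, 49.1, 49.7 and 50.3 in PFOS livers. In control livers it was 43.1, 40.8 and 64.7. PFOS replicate 1 was the lowest liver of all and control replicate 3 the highest, and the other PFOS livers lay close together between them. The averages were 47.1 ± 5.24 in PFOS livers (SD, n = 4) and 49.5 ± 13.1 in control livers (SD, n = 3), a log2 fold change of -0.05 (95% interval -0.49 to 0.40, limma adjusted p = 0.9995). Its probes, fitted singly, gave 0.05 (SE 0.17) and 0.15 (SE 0.18), both of the other sign than the sum. The second, dimmer probe was detected on 3 PFOS arrays and on no control array.

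For miR-199a-3p, the other arm of the hairpin, which targets mTOR and MET in human liver cancer cells, the signal was 108, 167, 153 and 179 in PFOS livers and 129, 120.0 and 165 in control livers. The lowest and the highest values both came from PFOS livers, and the groups overlapped. Means of 152 ± 30.9 in PFOS livers (SD, n = 4) and 138 ± 23.8 in control livers (SD, n = 3) gave a log2 fold change of 0.13 (95% interval -0.36 to 0.62, limma adjusted p = 0.837). Both of its probes pointed the same way, at 0.21 (SE 0.20) and 0.09 (SE 0.18).

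The signal of miR-214, which stellate cells of mouse release in vesicles and which targets the connective tissue growth factor Ccn2, was 26.7, 29.5, 32.1 and 29.1 in PFOS livers. Control livers read 32.7, 30.6 and 32.9, of which only control replicate 1 counted as detected. The groups overlapped by PFOS replicate 3 alone, and the spread over all 7 livers was 1.23-fold. The log2 fold change was -0.13 (95% interval -0.33 to 0.08, limma adjusted p = 0.478). Fitted singly, its probes gave 0.07 (SE 0.13) and 0.21 (SE 0.14), so the sum and the single probes differed in sign. Each was of the sign that floor values take in its own processing. When probes were normalised singly, an undetected miR-145 probe at the floor read 8.73 to 10.6 on PFOS arrays and 7.76 to 8.33 on control arrays.

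**Figure D2:**
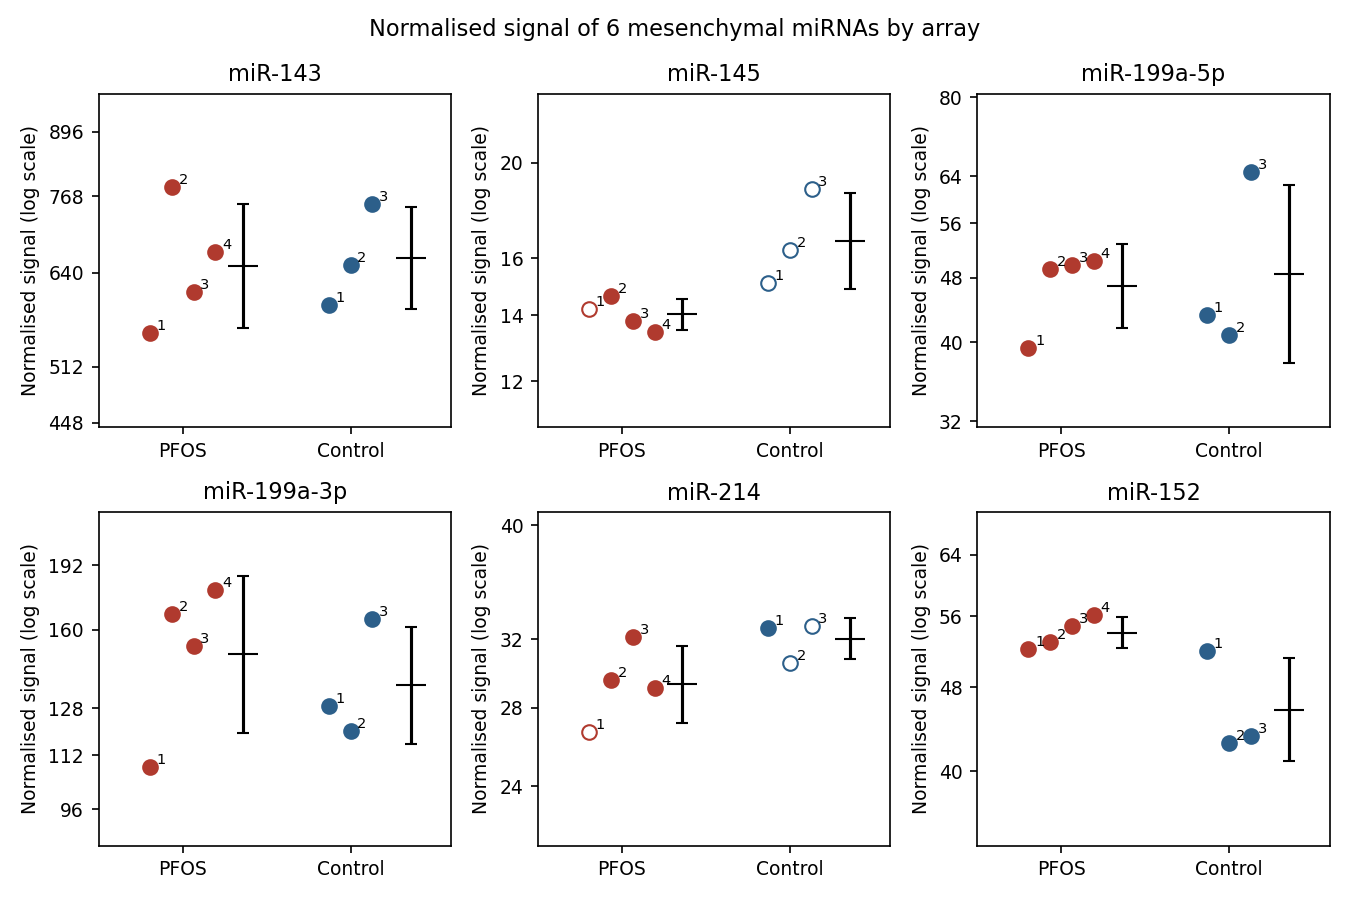
Normalised signal (log scale) of each miRNA in 4 PFOS livers (red, left) and 3 control livers (blue, right), with replicate numbers beside the points, filled where the miRNA was detected on that array and open where it was not. Black marks are the geometric mean and 1 SD on the log2 scale. The groups overlap for miR-143, both arms of miR-199a and miR-214, while miR-145 lies lower and miR-152 higher in all 4 PFOS livers; the sign of miR-152 turned under spike-in scaling, and that of miR-145 under scaling over all miRNAs, quantile normalisation, the deposited table and the brightest probe.

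The largest positive difference among the 6 was that of miR-152. Its normalised signal was 52.13, 53.0, 54.9 and 56.2 in PFOS livers, against 51.99, 42.5 and 43.2 in control livers. The groups did not overlap, though control replicate 1 lay just below the lowest PFOS liver. When its detected probe was normalised singly the groups did overlap, with 49.9 in PFOS replicate 1 and 51.5 in control replicate 1 (log2 difference 0.20, SE 0.09). The averages were 54.1 ± 1.83 in PFOS livers (SD, n = 4) and 45.9 ± 5.28 in control livers (SD, n = 3). The log2 fold change was 0.24 (SE 0.09, 95% interval 0.02 to 0.46), which did not pass in limma (adjusted p = 0.240, 0.0382 unadjusted). An exact two-sided permutation test over the 35 splits of the arrays gave p = 0.0571, which is the smallest value that this test can give.

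The level of miR-152 rose with the brightness of the array over the 7 arrays. Its values, like brightness, were higher on every PFOS array than on any control array. Over the 7 arrays its log2 normalised signal followed the log2 median unscaled signal with Pearson r of 0.898 (exact permutation p = 0.00575, 0.0230 adjusted over 4 members) and Spearman rho of 0.964 (exact permutation p = 0.00278, 0.0111 adjusted). Without control replicates 2 and 3, the arrays farthest from the median brightness, r was 0.644 over 5 arrays. On deviations from the group means r was 0.694, with no test. For miR-143, miR-199a-5p and miR-199a-3p the same r was -0.237, -0.0819 and 0.261, with exact permutation p of 0.603, 0.863 and 0.564. Within the first row of the slide, which held PFOS replicates 1 and 2 and control replicate 1, the log2 difference of miR-152 was 0.02. Within the second row, with the other 4 arrays, it was 0.37. The permutation over the 7 arrays ignored the groups, which brightness also separated, so diet and brightness cannot be told apart there. The part of brightness in the difference was not tested.

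**Figure D3:**
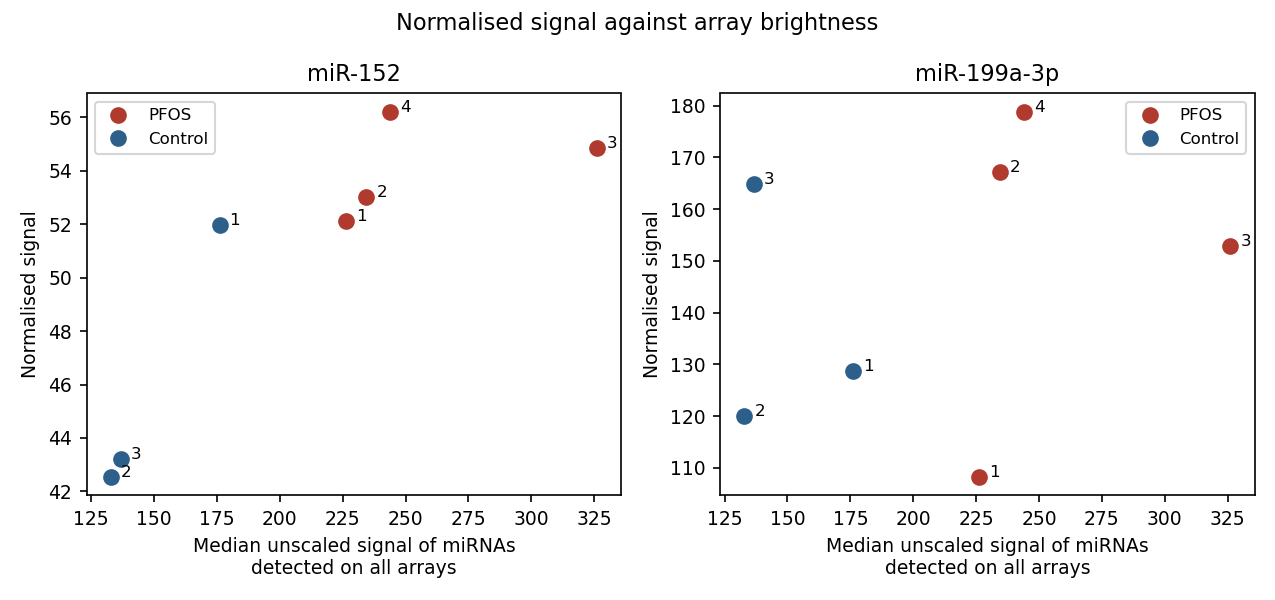
Normalised signal of miR-152 (left panel) and miR-199a-3p (right panel) against array brightness, the median unscaled signal of the 123 miRNAs detected on every array, with 1 point per array, red for PFOS and blue for control, numbered by replicate. For miR-152 the dimmest arrays, control replicates 2 and 3, have the lowest values (r = 0.898), while the miR-199a-3p values scatter (r = 0.261).

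The seed relative miR-148b-3p was detected on all 7 arrays, with geometric means of 66.9 (PFOS) and 58.4 (control). Its log2 fold change was 0.20 (SE 0.10, limma adjusted p = 0.375), of the same sign as that of miR-152. Across the 7 arrays the pair had r of 0.595 (exact permutation p = 0.162) and rho of 0.429 (exact permutation p = 0.354). Without control replicates 2 and 3 r was -0.373. How far the probes of either miRNA read the other was not tested.

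Over the 6 members together, none passed at an adjusted p under 0.05 in limma, where 0% of the 175 tested miRNAs passed in either direction. At an unadjusted p under 0.05 there was 1 higher member, miR-152, and 1 lower, miR-145, beside 8.57% of all tested miRNAs higher and 10.3% lower, 18.9% in all. For miR-145 this rests on control values not above background, and it entered the test through PFOS arrays alone. The groups did not overlap for these same 2 members, with the same limit for miR-145. Over all tested miRNAs they did not overlap for 10.3% in the higher and 10.3% in the lower direction, 20.6% in all. The median log2 fold change was -0.04 for the members, with miR-145 at its normalised values, and -0.03 for all tested miRNAs. The 5 members other than miR-145 ran from -0.13 to 0.24. Of the 10 member probes that could be tested, 0 passed (limma, smallest adjusted p = 0.313), in a probe fit where 0% of 320 probes passed. The groups overlapped for all 10, where 12.8% of all tested probes lay higher and 5.62% lower without overlap. Single probes had a positive sign in 8 and a negative sign in 2, whereas the summed signals were positive for 2 members and negative for 4. Floor values also took a positive sign in the probe processing and a negative sign in the summed processing.

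Without a scaling step the mean of all 6 members was higher on PFOS arrays, as was that of the arrays as a whole. The mean unscaled signal was 832 ± 221 on PFOS arrays and 504 ± 99.3 on control arrays for miR-143, a ratio of 1.65. It was 194 ± 58.7 on PFOS arrays and 105 ± 26.6 on control arrays for miR-199a-3p, a ratio of 1.85 (SD, n = 4 and 3). Apart from miR-145, the ratios ran from 1.58 for miR-214 to 1.96 for miR-152, beside 1.74 for the median miRNA and 2.23 for the labelling spike-in. When the arrays were scaled by that spike-in all 6 members had a negative sign, with log2 fold changes of -0.52 to -0.17 for those other than miR-145, as had the median tested miRNA at -0.43. The sign of every member except miR-152 and miR-199a-3p also turned under at least 1 other processing. None of the 6 passed under any of them.

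**Figure D4:**
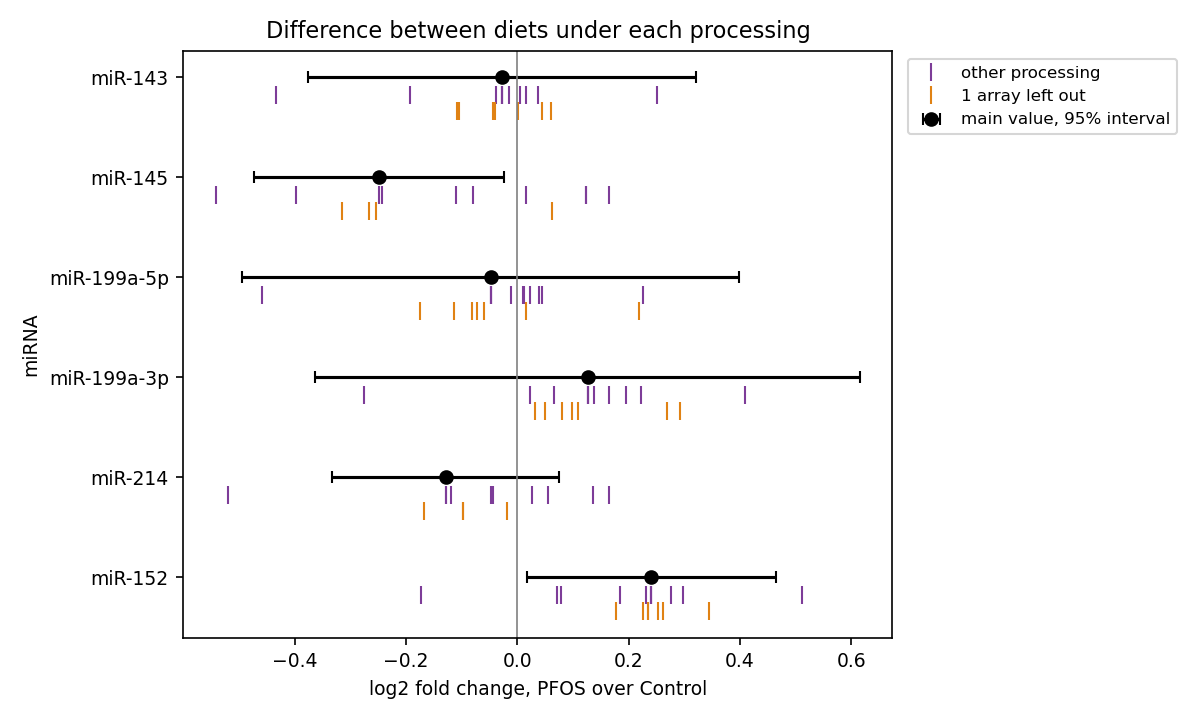
Log2 fold change of PFOS over control for each miRNA, with the main value and its 95% interval in black, the values under other processing in purple and those with 1 array left out in orange. For miR-145 the marks are differences between values that were above background on no control array, and not a fold. The intervals of miR-143, both arms of miR-199a and miR-214 span 0, and the purple marks of all 6 lie on both sides of it.

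Partners of a cluster were also set against each other within each array, where a factor common to the array cancels for values above the floor, while the loess step does not. The log2 ratio of miR-199a-5p to miR-199a-3p was -1.46, -1.77, -1.62 and -1.83 in PFOS livers and -1.58, -1.56 and -1.35 in control livers. The difference of the means was -0.17, with overlapping groups (exact two-sided permutation p = 0.229, 0.381 adjusted over 4 ratios). The ratio of miR-199a-3p to miR-214 was higher by 0.26 (exact permutation p = 0.286) and that of miR-199a-5p to miR-214 by 0.08 (exact permutation p = 0.743). That of miR-143 to miR-145 is not read here, since miR-145 was above background on no control array. None of the other ratios passed. None could have passed, since the two-sided permutation test over 35 splits cannot give a p below 0.0571.

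Liver by liver, miR-143 and the arms of miR-199a deviated in the same direction on several arrays of both diets, though no correlation among them passed after adjustment in this processing. Several passed under scalings that leave array-wide brightness in the values. The 2 arms of miR-199a also passed under quantile normalisation (r of 0.9498, exact permutation adjusted p = 0.0143). They passed too without control replicate 3 (r of 0.980, exact permutation adjusted p = 0.0167). PFOS replicate 1 lay below the 7-array mean for all 3, by -0.24 for miR-143, -0.27 for miR-199a-5p and -0.41 for miR-199a-3p on the log2 scale. Control replicate 3 lay above it for all 3, by 0.20, 0.44 and 0.20. The 2 arms of miR-199a had Pearson r of 0.803 over the 7 arrays (exact permutation p = 0.0248) and rho of 0.821 (exact permutation p = 0.0341), 0.140 and 0.144 when adjusted over 6 pairs of members. Without PFOS replicate 1 and control replicate 3, the arrays farthest from the median, r was 0.952 over the other 5, and on deviations from the group means it was 0.860. For miR-143, r was 0.745 with miR-199a-3p (exact permutation p = 0.0657) and 0.706 with miR-199a-5p (exact permutation p = 0.0700), and without PFOS replicates 1 and 2 these were 0.528 and 0.783. The 3 pairs with miR-152 had r of -0.271, -0.169 and 0.257 (exact permutation p of 0.559, 0.752 and 0.537), with miR-143, miR-199a-5p and miR-199a-3p in turn. Without the 2 arrays farthest from the median these were -0.538, 0.874 and 0.0199, so that the r of miR-199a-5p with miR-152 turned its sign on control replicate 3 and PFOS replicate 1. Without control replicate 3 alone it was 0.799 (exact permutation p = 0.00417, adjusted 0.0167). As a background, the median r over all 7503 pairs of miRNAs detected on every array was -0.0208, and 2.93% of the pairs were above 0.8. The slide rows held 3 and 4 arrays, too few for a correlation within a row.

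**Figure D5:**
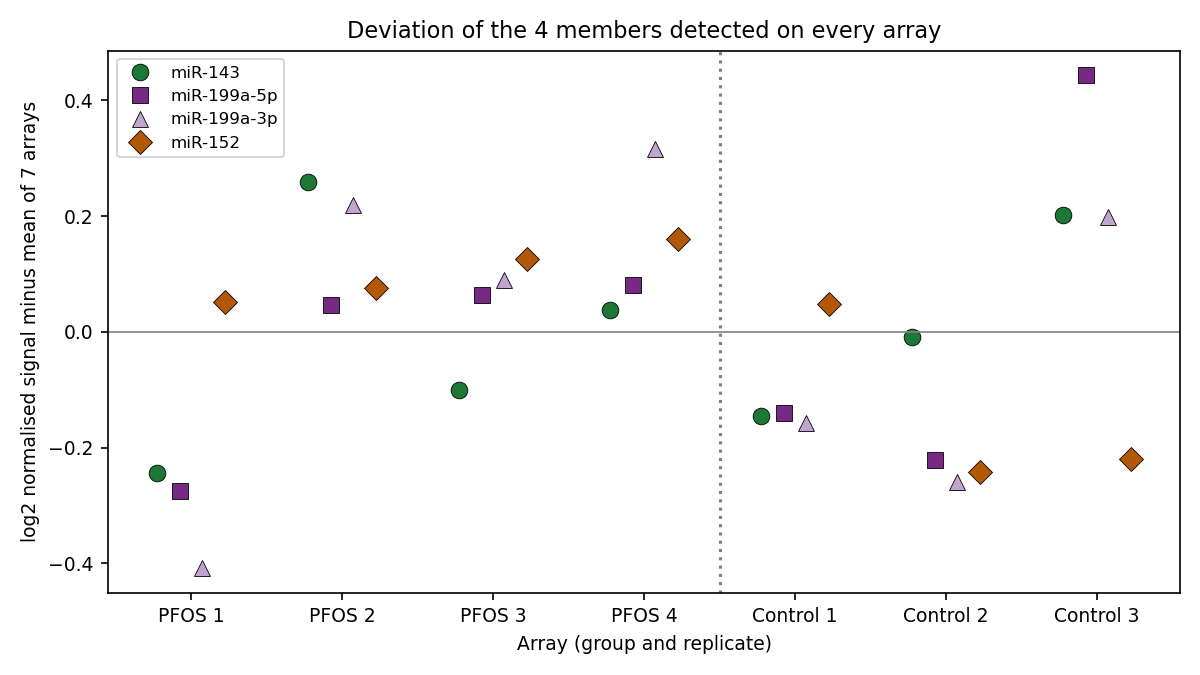
Log2 normalised signal minus the mean of all 7 arrays (vertical axis) for the 4 miRNAs detected on every array, by array (horizontal axis, PFOS left of the dotted line). The points of miR-143 and the 2 arms of miR-199a sit low together on PFOS replicate 1 and high together on control replicate 3, while miR-152 has its lowest points on control replicates 2 and 3.

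The tested miRNAs with the most similar pattern over the 7 arrays were listed for each member by Pearson r, as the highest of 174 values and with no test. The arms of miR-199a were each among the 3 nearest of the other. For miR-199a-5p the nearest was miR-100 with r of 0.822, and the third was miR-125b-5p with 0.775. For miR-199a-3p the nearest were miR-151 and miR-322, with r of 0.839 and 0.815. For miR-143 the nearest was miR-23a with r of 0.960, followed by miR-450a with 0.835 and let-7e with 0.830. The nearest of miR-152 were miR-193*, miR-361 and miR-107, with r of 0.926, 0.887 and 0.806. Of these, miR-193* was detected on 4 PFOS arrays and on only 1 control array. The dim miR-214 was nearest to miR-223 with r of 0.881, miR-194 with 0.855 and miR-21 with 0.822. The dim miR-145 was nearest to miR-7a with r of 0.942, miR-125a-5p with 0.920 and miR-10b with 0.898. Both miR-145 and miR-10b were detected on 3 PFOS arrays and on no control array, so these r rest in part on values not above background. The other arms of the hairpins, miR-143*, miR-145*, miR-152* and miR-214*, were detected on none of the 7 arrays. Neither was miR-3120, whose hairpin overlaps that of miR-214.

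Other miRNAs tied to stellate cells and fibrosis were read as a list of 25, of which 22 were tested, 21 were detected on every array and 3 on none. None passed in limma, as 0% of all tested miRNAs did. There were 8 with a positive and 14 with a negative log2 fold change, with a median of -0.05 against -0.03 for all tested miRNAs. At an unadjusted p under 0.05, 2 were higher and 3 lower of the 22, beside 8.57% higher and 10.3% lower over all tested miRNAs. Those of smallest p were miR-23b at -0.35 (SE 0.07), miR-29c at 0.34 (SE 0.08), miR-27b at -0.35 (SE 0.10) and miR-221 at 0.67 (SE 0.21), with limma adjusted p of 0.126, 0.126, 0.144 and 0.166. Next came miR-34a at -0.69 (SE 0.25, limma adjusted p = 0.240). The collagen-targeting miR-29c had geometric means of 1487 (PFOS) and 1176 (control). The groups did not overlap for miR-29c and miR-29b, which were higher, or for miR-23b, miR-27b and miR-24, which were lower, beside 10.3% in each direction over all tested miRNAs. For miR-221, which is raised in activated stellate cells, the means were 51.3 in PFOS livers and 32.3 in control livers, with detection on 4 PFOS and 2 control arrays. The profibrotic miR-21 had geometric means of 9304 (PFOS) and 10441 (control), a log2 fold change of -0.17 (SE 0.11).

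Markers of other cells that could carry the members gave the following summed normalised signals. The endothelial pair miR-126 and miR-126* summed to 1703 to 1842 in PFOS livers and 1569 to 1947 in control livers. Leukocyte and Kupffer cell miRNAs, 5 tested of 5 on the array, summed to 1070 to 1377 in PFOS livers and 1186 to 1316 in control livers. Erythroid miRNAs, 2 tested, ran from 442 to 1076 in PFOS livers and from 522 to 939 in control livers. Of 6 muscle miRNAs 5 were detected on no array, miR-1 and miR-133a among them, and the sixth, miR-206, read 12.0 to 59.4 in PFOS livers and 23.6 to 59.1 in control livers. The hepatocyte list, 4 tested, summed to 63147 to 65914 in PFOS livers and 64108 to 66166 in control livers. In all of these the sums overlapped between the groups, but each sum follows its brightest miRNA, and miR-122 makes up most of the hepatocyte sum. Singly, the hepatocyte list's miR-101a was higher (log2 fold change 0.19, SE 0.08, limma adjusted p = 0.249) and the leukocyte miR-223 lower (-0.23, SE 0.09, limma adjusted p = 0.240), both without overlap and neither past the test. Epithelial miRNAs, 4 tested of 7, summed to 578 to 891 in PFOS livers and 392 to 513 in control livers, without overlap. Of these, miR-200a and miR-200b were higher (log2 fold changes 1.58 and 1.82, SE 0.37 and 0.48). So was miR-429, which was detected on no control array, each with a limma adjusted p of 0.126. The fourth, miR-31, was at -0.01 (SE 0.12). The part of all these markers in the levels of the 6 members was not tested.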

How the data were processed

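Arrays of whole liver from 4 PFOS-fed and 3 control rats were grouped by their titles, and replicate numbers only name arrays. Per the file headers, spot intensity values came from Agilent Feature Extraction 10.7.3.1 on 1 slide with 1 scan time; the intensity column used is background-subtracted and not normalised between arrays. The deposited table of log2 values was made by the authors with cyclic lowess, per the labels, at settings that the sources used here do not give. Its column medians were 5.50, 5.48, 5.50 and 5.50 for PFOS and 5.50, 5.51 and 5.51 for control arrays, and each column followed the log2 median pixel signal of its array (r of 0.9987 to 0.9999 across miRNAs, which are not independent replicates), with no centring per miRNA and the direction of signal.

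Spots without outlier flags were averaged per probe (1644 probes) and probes summed per miRNA. Each array was divided to match the 75th percentile of miRNAs seen on all arrays, floored at the 1st percentile of detected values (12.1), log2-transformed and normalised by cyclic loess (span 0.7, 3 iterations, weight on miRNAs detected on all arrays). The test (limma 3.58.1 in R 4.3.3, lmFit then eBayes) took 175 miRNAs, those detected on all 3 control or on 3 or more PFOS arrays, with Benjamini-Hochberg adjustment over all of them, and likewise 320 probes. The fit was checked on simulated data. Exact permutation tests used SciPy 1.17.1. Named were the members, their other arms and seed relatives, up to 4 miRNAs per list by smallest p and the 3 nearest by r; miR-21, miR-24, miR-29b, miR-34a and the absent muscle markers were named after their values were seen. Alternatives changed the normalisation, background, signal, summary, filter, floor and slide row, and left out each array. The members and lists were chosen with earlier results of these data known.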

Additional observations from a re-analysis of the deposited data

Results flagged for a closer look

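Of 22 measures screened on the 4 PFOS arrays, 3 set PFOS replicate 1 far from the other PFOS arrays, where chance flags about 1 group in 20; groups of 3 were not screened. The log2 normalised signal of miR-199a-5p was 5.30 there (39.3 in signal), and the gap to the next array took a 0.903 share of the group's range. One of its probes, A_26_P00001449, read 5.10 (34.2 in signal), which is the same reading in part. The miR-214 probe A_26_P00001482 read 3.88 (14.8 in signal). Without PFOS replicate 1 the log2 fold change was 0.02 for miR-199a-5p, against -0.05 with it, and -0.10 for miR-214, against -0.13. It was 0.27 for miR-199a-3p, against 0.13. PFOS replicate 1 also had the lowest 75th percentile of the PFOS arrays before scaling, 581, against 779 to 1046 on the other PFOS arrays and 433 to 536 on the control arrays.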

How the results depend on the processing

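No member passed under any of 18 alternative runs. No cluster ratio passed in 15 alternative runs, but the ratio test had too few splits to pass in any of them. Its two-sided p cannot go below 0.0571 on all 7 arrays, and leaving out 1 array leaves fewer splits. Neither miR-145 nor miR-214 entered the test without PFOS replicate 2, 3 or 4, or when detection on all arrays was required. With no filter on dim miRNAs 2 probes passed, the undetected ones of miR-145 and miR-152, which share 1 value per array at the floor. Over all miRNAs the count past the threshold was 3 (3 higher) under 75th percentile scaling over all miRNAs, 8 (8 lower) under spike-in scaling, 6 (5 higher) with normexp, 9 (9 lower) in the deposited value table, 1 with no filter and 4 with slide row as a block. The median log2 fold change over tested miRNAs was 0.25 and -0.43 under the first 2.

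Signs turned as follows; the cause was not tested. Values with miR-145, above background on no control array, are given only to show that they move. Under 75th percentile scaling over detected miRNAs the log2 fold change was 0.038 for miR-143 and 0.012 for miR-199a-5p. Under 75th percentile scaling over all miRNAs it was 0.25 for miR-143, 0.12 for miR-145, 0.23 for miR-199a-5p and 0.17 for miR-214. With quantile normalisation it was 0.0058, 0.12, 0.044 and 0.14 in the same order. Under spike-in scaling it was -0.28 for miR-199a-3p and -0.17 for miR-152. With normexp it was 0.015 for miR-143 and 0.023 for miR-199a-5p. In the value table it was 0.016 for miR-145, 0.011 for miR-199a-5p and 0.026 for miR-214, and with the brightest probe 0.16, 0.038 and 0.055. Log2 ratios turned to -0.12 (miR-143 over miR-145) and -0.092 (miR-199a-5p over miR-214) with quantile normalisation, to -0.21, -0.015 and, for miR-199a-3p over miR-214, -0.0028 in the value table, and to -0.20 and -0.016 with the brightest probe.

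The r of the miR-199a arms passed after adjustment (exact permutation) under 75th percentile scaling over all miRNAs (0.961), quantile normalisation (0.9498) and spike-in scaling (0.957), the first and last of which leave array-wide brightness differences in the values. Under these 2, miR-143 passed too with miR-199a-5p (0.926 and 0.932) and miR-199a-3p (0.942 and 0.893), as did miR-199a-3p with miR-152 (0.864 and 0.815). That of the miR-199a arms ran from 0.713 to 0.980 with 1 array left out, the highest, without control replicate 3, alone passing. The r of miR-143 with miR-152 turned to 0.713, 0.255 and 0.653 under the same 3. That of miR-199a-5p with miR-152 turned to 0.729, 0.588 and 0.751, and to 0.0974 under scaling over detected miRNAs, 0.0698 with normexp and 0.512 in the value table. With 1 array left out, log2 fold changes ran from -0.11 to 0.061 for miR-143, -0.32 to 0.062 for miR-145 and -0.18 to 0.22 for miR-199a-5p, each highest without control replicate 3, and from 0.032 (without control replicate 2) to 0.29 (without control replicate 3) for miR-199a-3p. Ratios ran from -0.0015 to 0.30 for miR-143 over miR-145 and -0.018 to 0.24 for miR-199a-5p over miR-214, and r from -0.519 to 0.104 and -0.484 to 0.799 for the pairs of miR-152 with miR-143 and miR-199a-5p.

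No paired analysis was made, since each array came from a different rat and the labels give no pairing between the diets. Signals near background limit miR-145 and miR-214.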
